A study of Mus musculus with 5 samples.

Results

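The Ifit genes encode interferon-induced proteins with tetratricopeptide repeats. Ifit1, Ifit2, Ifit3, Ifit3b and Ifit1bl1 were followed here in single T cells from the mouse brain, in the cells counted as 1 cell per well with at least 400 unique molecular identifiers (UMIs, each counting 1 captured RNA molecule) and at most 30% mitochondrial UMIs. The 5 genes are 5 of 52542 in the count files and were chosen with their levels in these libraries already known, so differences between the groups are given as descriptions. They held 966 UMIs in 205 of 1482 kept cells.

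All mice were of the Grl1loxP/loxP strain, with loxP sites in the gene of the glucocorticoid receptor. TAT-CRE recombinase, a Cre protein that enters cells, was injected into the brain ventricles of the TAT-CRE mice, and PBS into those of the controls, and all were then given foot-shock stress. T cells (CD45+CD11b-TCRβ+) were sorted on day 14 after stress from the brain parenchyma without the choroid plexus, which was the tissue meant to lose the receptor, so its loss cannot be read from these cells. The injected protein is not tied to a cell type by any promoter. The TAT-CRE group held libraries 207 and 208, of animals aged 18 weeks, and 215, aged 19 weeks, and the PBS group libraries 216 and 218, aged 19 and 16 weeks. Each library has 1 replicate number and 1 age and is called a mouse below, but the labels do not say whether animals were pooled, so every p-value measures only the spread between these 5 libraries.

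Kept cells numbered 274 to 311 per library, with 362457 to 839188 UMIs in all. TAT-CRE 208 stood apart, with the lowest median depth (993 UMIs per cell against 1410 to 2660) and 28.3% of its UMIs on ribosomal RNA genes against 43.9% to 48.0% in the other 4 libraries. The T cell receptor gene Trbc2 was found in 45.9% to 59.8% of kept cells of each library. No UMI was found in any of the 1482 cells for 7 of 7 neutrophil markers, 7 of 10 monocyte or macrophage markers (among them Lyz2, Csf1r and Cd14), 6 of 10 microglia markers and 4 of 9 B cell markers (among them Cd79a). A count of 0 allows a UMI of the gene in up to 0.202% of cells, and sets no limit on cells that express it below detection. The B cell list summed to 81.4 CPM (UMIs per 1000000 UMIs) in cells with a UMI of the Ifit family and 125 CPM in those without, mostly from Ighm, found in 6.83% and 7.91% of these cells. The same 384 cell barcodes served all 5 libraries. Of 252 kept cells that shared a barcode with a cell of 5 or more family UMIs in another library, 15.9% had a family UMI, against 13.8% of all kept cells. The 20 empty wells held 1095 UMIs and none of the family, which allows a family level of up to 2740 CPM, above the 318 CPM of kept cells.

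Ifit genes are classical targets of type I and type III interferons. Receptor binding activates transcription factors that bind interferon-stimulated response elements in target promoters. IFIT proteins bind viral RNA or other IFIT proteins and restrict translation, and in T cells their transcripts are read as a trace of recent interferon exposure. Ifit1 recognises RNA whose cap lacks the methylation of the host's own RNA, Ifit2 and Ifit3 are related RNA-binding or partner proteins, and Ifit3b and Ifit1bl1 are further copies of the mouse cluster.

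The 5 genes and Ifit1bl2, a sixth gene of the cluster with 5 UMIs in 1 cell, lie within 99.3 kb of mouse chromosome 19 (GENCODE, GRCm38). Ifit2 spans chr19:34550694-34576419, Ifit3 chr19:34583531-34588731, Ifit3b chr19:34607970-34613401 and Ifit1 chr19:34640871-34650009, all on the plus strand, and Ifit1bl1 spans chr19:34592891-34601956 on the minus strand. The 250 bases before the first RefSeq start of each gene (build GRCm38.p6) are shown, 5′ to 3′ on the gene's own strand. The reason is that members shared cells more often than independent detection would give, though most positive cells held only 1 member. Capitals mark GAAANNGAAA, the core of an interferon-stimulated response element, searched on both strands, so that a match on the other strand reads TTTCNNTTTC, and every match counted whether or not it overlapped another.
Ifit1: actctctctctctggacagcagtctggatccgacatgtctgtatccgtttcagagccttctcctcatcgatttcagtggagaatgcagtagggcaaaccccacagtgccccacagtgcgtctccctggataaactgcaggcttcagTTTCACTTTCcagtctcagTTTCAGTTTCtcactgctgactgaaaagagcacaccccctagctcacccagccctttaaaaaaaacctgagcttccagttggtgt
Ifit3: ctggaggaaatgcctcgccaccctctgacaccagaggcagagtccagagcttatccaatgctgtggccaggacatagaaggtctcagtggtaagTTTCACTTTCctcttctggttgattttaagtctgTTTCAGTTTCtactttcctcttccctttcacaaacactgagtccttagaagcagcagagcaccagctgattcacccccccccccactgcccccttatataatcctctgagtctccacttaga
Ifit3b: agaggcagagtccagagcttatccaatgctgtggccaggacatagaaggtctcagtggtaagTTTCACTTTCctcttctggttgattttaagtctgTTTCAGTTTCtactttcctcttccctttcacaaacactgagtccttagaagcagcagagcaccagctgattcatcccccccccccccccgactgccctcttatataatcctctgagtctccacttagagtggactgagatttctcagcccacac
Ifit1bl1: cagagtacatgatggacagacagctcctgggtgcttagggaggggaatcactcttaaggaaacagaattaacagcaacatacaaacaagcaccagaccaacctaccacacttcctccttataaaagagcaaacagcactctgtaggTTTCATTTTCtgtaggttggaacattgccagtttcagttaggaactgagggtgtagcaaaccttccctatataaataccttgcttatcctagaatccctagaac
Ifit2: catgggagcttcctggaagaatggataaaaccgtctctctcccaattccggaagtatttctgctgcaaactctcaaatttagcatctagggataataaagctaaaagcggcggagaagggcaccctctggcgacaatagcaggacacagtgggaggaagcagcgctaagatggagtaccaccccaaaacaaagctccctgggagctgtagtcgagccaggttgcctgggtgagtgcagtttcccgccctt
Ifit1 (chr19:34640639-34640888), Ifit3 (chr19:34583279-34583528) and Ifit3b (chr19:34607707-34607956) each carried 2 matches. In Ifit3 and Ifit3b both matches lay in a stretch of 169 identical bases, at 156 to 113 bases before the start of Ifit3 and 188 to 145 bases before that of Ifit3b. Ifit1bl1 (chr19:34601969-34602218) carried 1 match, 104 to 95 bases before its start, and Ifit2 (chr19:34550444-34550693) carried none in this window or in that of its second RefSeq start. A match was present in 2.98% of 32851 such windows over all genes, and 2 or more in 0.180%. Counted by gene over all its windows, 20 of 49 other interferon response genes (40.8%) held a match, against 3.46% of 27025 genes.

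Near copies can share reads. Of the 30-base stretches in the last 1000 bases of the transcript, where libraries primed at the poly(A) tail are read, 57.0% of those of Ifit3 also occurred in Ifit3b and 29.1% of those of Ifit3b in Ifit3. Ifit1bl1 shared 20.8% with Ifit1bl2 and none with Ifit1, and Ifit2 shared none with any gene. How the counting treated shared reads is not given in the sources used here, so the division of UMIs between Ifit3 and Ifit3b is uncertain, and their sum is given as well.

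Positive cells were few, and most family members were dense in them. Ifit1bl1 was found in 87 cells (5.87%), Ifit3 in 61 (4.12%), Ifit1 in 58 (3.91%), Ifit2 in 28 (1.89%) and Ifit3b in 21 (1.42%). A positive cell held on average 5.09 Ifit1 UMIs, 3.69 of Ifit1bl1, 3.61 of Ifit2, 3.44 of Ifit3 and 1.86 of Ifit3b. In all, 4501 other genes were found in as few cells (21 to 87), and a positive cell held a median of 2.45 of their UMIs (1.08 to 3.44 from the 5th to the 95th percentile, at most 4.71). No other gene of these reached Ifit1. Ifit1bl1 was reached by 92 of them, Ifit2 by 128, Ifit3 by 224 and Ifit3b by 3650. The Ifit1 mean includes 1 cell of TAT-CRE 215 with 28 of the 295 Ifit1 UMIs, and the median per positive cell was 3.5. Its rank without that cell was not tested.

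**Figure D1:**
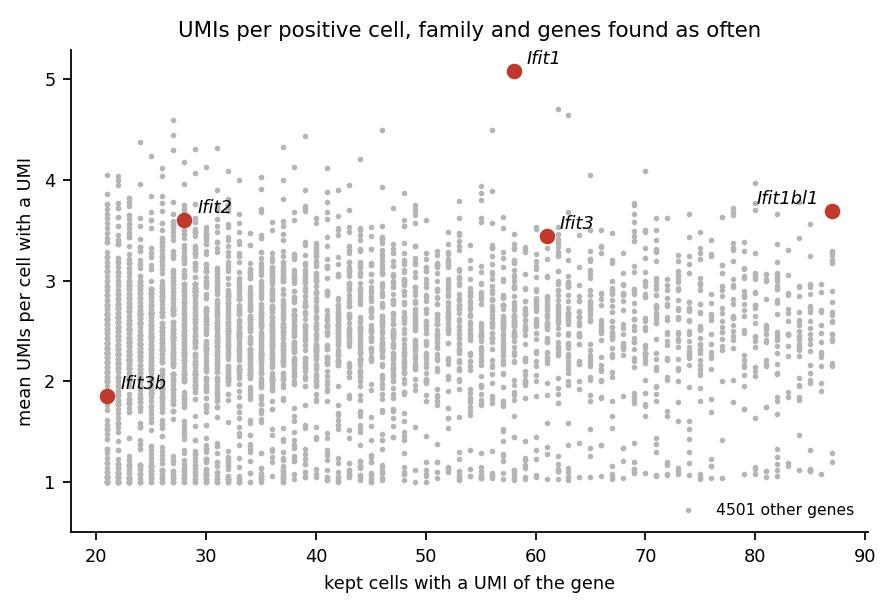
Mean UMIs per cell with a UMI (y axis) against the number of kept cells with a UMI (x axis), for the 5 members (red) and 4501 other genes found in 21 to 87 cells (grey). Ifit1, at 5.09 with its cell of 28 UMIs included, lies above every grey point, and Ifit3b, at 1.86, lies in the lower part.

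The UMIs were concentrated in a small number of cells. For Ifit1, 26 cells with 5 or more UMIs carried 78.3% of the UMIs and 1 cell of TAT-CRE 215 carried 28. For Ifit1bl1 31 such cells carried 65.1%, for Ifit3 17 carried 59.5% and for Ifit2 9 carried 58.4%. For Ifit3b 13 of the 21 positive cells held a single UMI. Cells with a family UMI were deeper than those without, at a median of 2074 against 1571 UMIs.

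By mouse, the members differed in how far the groups lay apart. Levels are UMIs per 1000000 UMIs outside spike-ins (CPM), summed over the kept cells of a library. Each molecule is counted once through its barcoded end, so transcript length was not divided out.

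Ifit3 stood at 101, 212 and 69.7 CPM in the TAT-CRE mice, given here and below in the order 207, 208, 215, and at 14.4 and 16.7 CPM in the PBS mice, in the order 216, 218. Every TAT-CRE mouse lay above both PBS mice, and the PBS values came from 8 and 14 UMIs. The share of cells with an Ifit3 UMI was 6.75%, 6.27% and 4.70% against 0.676% and 1.82%, while a positive cell held 3.44 ± 0.57 (SD, n = 3) against 3.40 ± 0.85 (SD, n = 2) UMIs. The groups lay apart in the share of positive cells, while the UMIs per positive cell differed by less than their spread. The PBS values per positive cell rest on 2 and 5 cells, too few to show that the groups were alike in this. After each cell was thinned to 400 UMIs, the expected share was 3.03% ± 0.97 (SD, n = 3) against 0.418% ± 0.0084 (SD, n = 2). The edgeR fit gave a log2 fold change of 2.84 ± 0.49 (SE), and 2.51 ± 0.51 (SE) without TAT-CRE 208.

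Ifit1 stood at 99.7, 232 and 112 CPM in TAT-CRE mice and at 52.3 and 56.0 CPM in PBS mice, and the groups did not overlap. Positive cells made up 4.82%, 4.95% and 4.36% against 2.36% and 2.92%, with 5.09 ± 0.50 (SD, n = 3) against 5.01 ± 1.22 (SD, n = 2) UMIs each. In TAT-CRE 215, 42.4% of the Ifit1 UMIs came from 1 cell. The fitted log2 fold change was 1.29 ± 0.36 (SE), and 1.04 ± 0.39 (SE) without TAT-CRE 208.

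Ifit3b had 14.4, 27.6 and 18.7 CPM in TAT-CRE mice and 10.8 and 2.38 CPM in PBS mice, from 2 to 11 UMIs per library. The groups did not overlap, but the interval that counting error alone gives for PBS 216 reached from 3.97 to 23.5 CPM (exact Poisson, 95%). With mice left out in turn, its fitted log2 fold change ran from 0.73 to 2.90, in the 3 fits where Ifit3b passed the filter on low counts. Summed with Ifit3 it gave 116, 240 and 88.4 CPM against 25.2 and 19.1 CPM, so the order of the mice by group was the same for the sum as for Ifit3. Ifit3b made up 11.5% to 21.2% of this sum in TAT-CRE mice, 42.9% in PBS 216 and 12.5% in PBS 218.

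Ifit2 and Ifit1bl1 overlapped between the groups. Ifit2 had 15.9, 74.5 and 47.6 CPM in TAT-CRE mice and 14.4 and 32.2 CPM in PBS mice, with PBS 218 above TAT-CRE 207. Ifit1bl1 had 130, 160 and 78.2 CPM against 68.5 and 106 CPM, with PBS 218 above TAT-CRE 215. Its share of positive cells was highest in TAT-CRE 207, at 9.97%, and was 4.03% to 6.20% in the other 4 libraries. The fitted log2 fold changes were 0.80 ± 0.68 (SE) for Ifit2 and 0.37 ± 0.35 (SE) for Ifit1bl1. With each mouse left out in turn they ran from 0.38 to 1.45 and from 0.13 to 0.68.

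**Figure D2:**
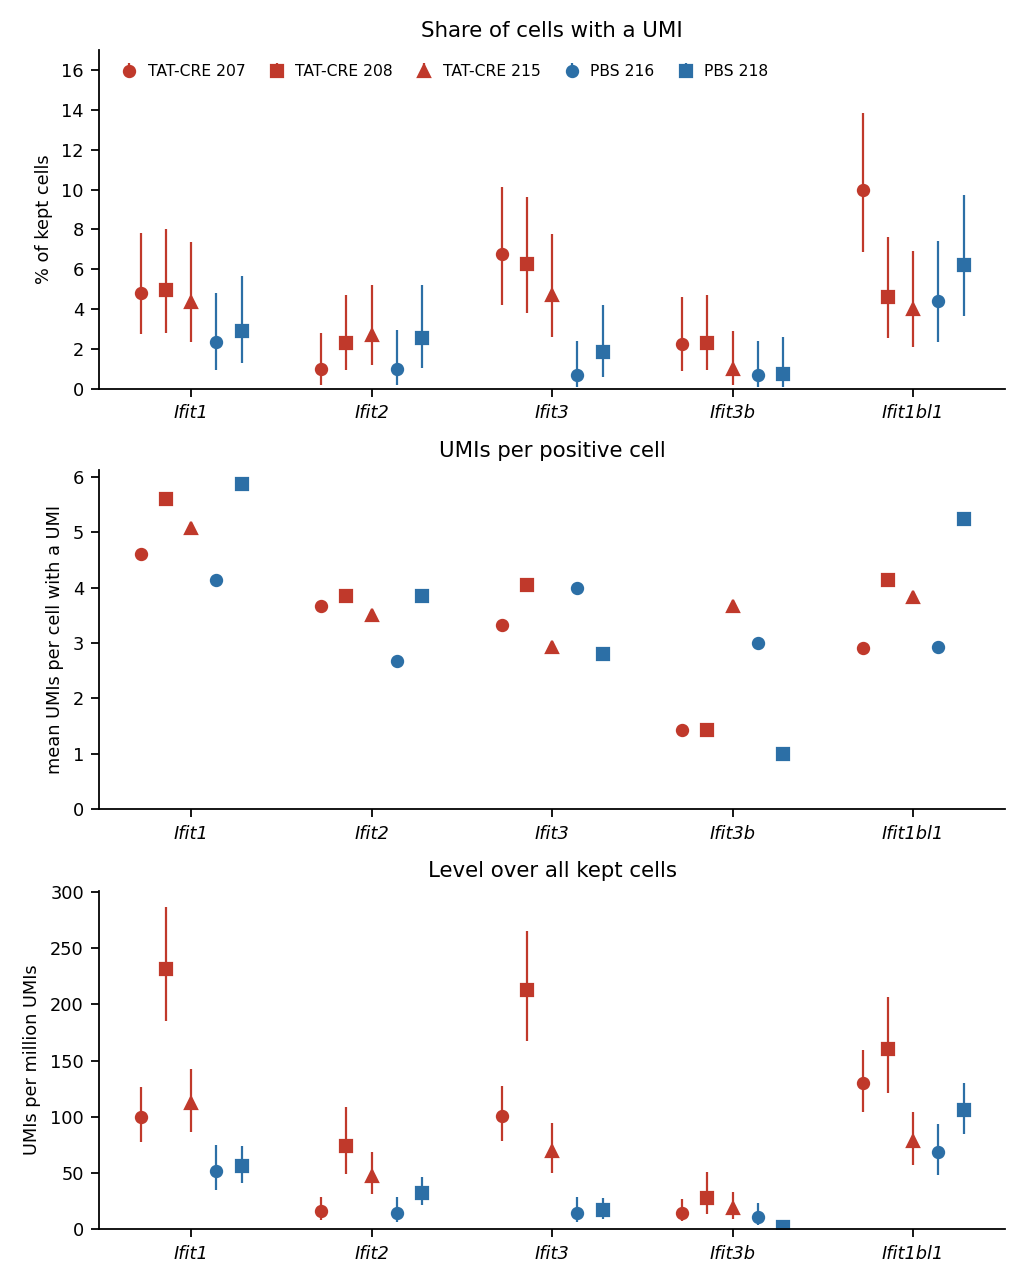
Share of kept cells with a UMI (top, bars are exact 95% binomial intervals), mean UMIs per positive cell (middle) and CPM over all kept cells (bottom, bars are exact 95% Poisson intervals), for each member (x axis) in 3 TAT-CRE (red) and 2 PBS (blue) libraries. For Ifit3 the shares differ by group (4.70% to 6.75% against 0.676% to 1.82%) while UMIs per positive cell lie at 2.80 to 4.05 in all 5 libraries. The PBS libraries had only 2 and 5 Ifit3-positive cells.

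Thus 3 of the 5 members, Ifit1, Ifit3 and Ifit3b, had every TAT-CRE mouse above both PBS mice. Over all 6341 genes tested, 10.3% had this order, and since the members were chosen with this contrast known, nothing is read from their count. The family sum stood at 361, 706 and 326 CPM against 160 and 213 CPM. Cells with any member made up 19.3%, 15.8% and 12.4% against 8.45% and 12.8%, which overlapped, and the group means differed by 5.24 percentage points, or 3.08 without PBS 216 and 3.52 without TAT-CRE 207. After thinning to 400 UMIs the shares were 8.71% ± 2.32 (SD, n = 3) against 4.90% ± 1.13 (SD, n = 2) and did not overlap, with the lowest TAT-CRE mouse at 6.29% and the highest PBS mouse at 5.69%. In cells of at least 800 UMIs the lowest TAT-CRE mouse, at 13.6%, also lay above the highest PBS mouse, at 12.5%. The groups lay apart with Ifit1bl1 not counted as well. They overlapped in cells of at least 200 UMIs, without the mitochondrial limit, and when 2 or more family UMIs were required. Whether the shares overlapped thus depended on the setting. TAT-CRE 208 was highest in CPM for every member, and its shallower cells and lower ribosomal RNA share moved with that; their part in its level was not tested. With ribosomal RNA genes left out, the fitted log2 fold changes of the 5 members stayed within 0.01 of those with these genes kept. These fits use TMM scaling and not CPM, so they do not test the part of ribosomal RNA in the CPM of TAT-CRE 208. Across all genes, edgeR called 0 of 6341 (0%) at an adjusted p under 0.05, with 239 at an unadjusted p under 0.05. DESeq2 called 1 (0.0158%). It was Ifit3, which was chosen with this contrast known, so nothing is read from the call.

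Members were found together more often than their separate shares would give. Within mice, the 10 pairs of members were seen together 65 times in a cell, where independent detection at each mouse's shares gives 17.8, a ratio of 3.66. By mouse the ratio was above 1 in each of the 5, at 2.93, 3.68 and 6.21 with TAT-CRE against 2.40 and 2.51 with PBS. The PBS ratios rest on 2 and 5 pairs observed, where 0.834 and 1.99 were expected. In TAT-CRE 215, 20 pairs were observed, and 2 cells with 4 members each gave most of them. Pairs from the same cell are not independent of each other. Deeper cells show more genes, so the expected number was also taken within 4 depth classes per mouse, which gave 3.39, and after thinning to 400 UMIs, which gave 4.99. By mouse the thinned ratios were 4.92, 5.01 and 6.99 with TAT-CRE and 3.87 and 1.77 with PBS.

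Ifit3 and Ifit3b shared 8 cells where 1.10 were expected, a ratio of 7.26 with an exact 95% Poisson interval of 3.13 to 14.3. Part of their transcript ends is the same, as given above. Ifit1 and Ifit3, which share no 30-base stretch, were together in 12 cells against 2.76 (ratio 4.35, interval 2.25 to 7.60), and Ifit1 and Ifit3b in 7 against 0.921. The ratio of Ifit2 with Ifit3b was 7.87, from 3 cells against 0.381, with an interval of 1.62 to 23. Of these 3 cells, 2 were the TAT-CRE 215 cells with 4 members. Ifit2 and Ifit3 shared 2 cells against 1.17, with an interval of 0.208 to 6.20 that includes 1. The closest pair by the phi coefficient of detection (a correlation between present and absent, averaged over the 5 mice) was Ifit3 with Ifit3b, at 0.178, which was above 0 in 4 mice. Ifit1bl1 was closest to Ifit3, at 0.116, above 0 in all 5 mice.

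**Figure D3:**
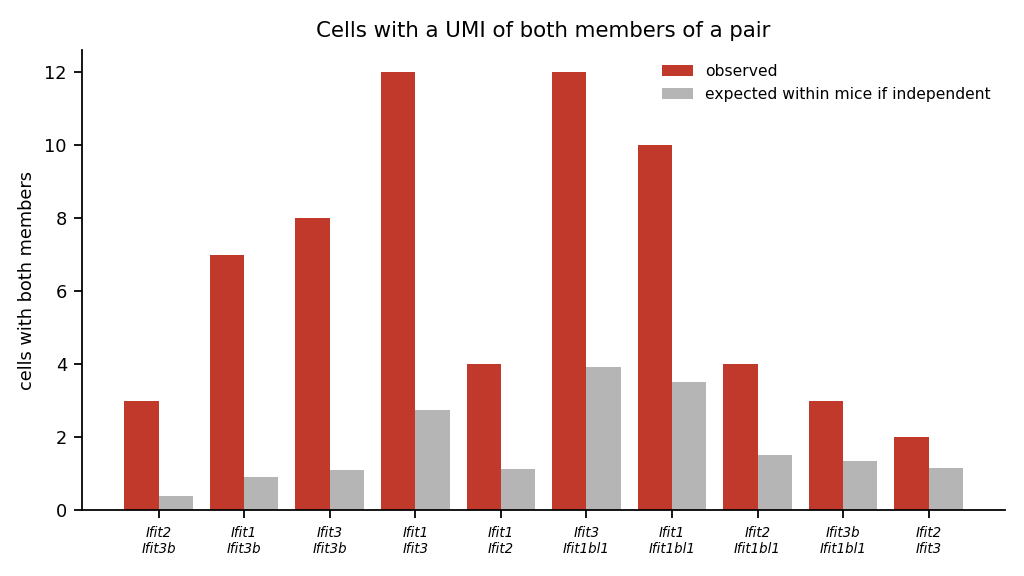
Number of cells (y axis) with a UMI of both members of each pair (x axis), observed (red) and computed from the members' shares within each mouse as if they were independent (grey). The observed number is above the expected one in all 10 pairs, with ratios from 7.87 for Ifit2 and Ifit3b (3 against 0.381) to 1.72 for Ifit2 and Ifit3 (2 against 1.17).

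In total 37 cells held 2 or more members. They were 18.0% of positive cells and carried 43.8% of the family UMIs, at 11.4 UMIs per cell against 3.23 in cells with 1 member. Of these 37, 32 were among the 912 kept cells of TAT-CRE mice and 5 among the 570 of PBS mice. By mouse they numbered 14, 10 and 8 in the TAT-CRE group and 2 and 3 in the PBS group. Of 11 cells with 3 or more members, 10 were from TAT-CRE mice. No cell held all 5. Both 4-member cells, of TAT-CRE 215, had Ifit3b (7 and 3 UMIs) and no Ifit3 UMI, and 13 of the 21 Ifit3b-positive cells had no Ifit3.

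A high level of 1 member did not always come with another. Of 26 cells with 5 or more Ifit1 UMIs, 13 had no other member, and of 31 such cells for Ifit1bl1, 21 had none. For Ifit3 this was so in 5 of 17 cells and for Ifit2 in 6 of 9.

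Other interferon response genes were compared between cells with and without a family UMI, to describe what else the positive cells carry. A list of 64 such genes outside the family summed to 8937 ± 3946 CPM (SD, n = 5 mice) in positive cells and 4785 ± 752 CPM in negative cells, higher in positive cells in 5 of 5 mice. The ratio was 1.76 as a mean of log ratios, with 1.32 in PBS 218 the lowest and 2.63 in TAT-CRE 208 the highest, and 1.60 without TAT-CRE 208. In cells of 1000 or more UMIs it was 1.74.

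No single gene passed the edgeR test. With mouse as a block, edgeR called 0 of 2435 genes (0%), with 117 at an unadjusted p under 0.05, of which 45 were higher and 72 lower in positive cells. DESeq2 called 4 (0.164%), all higher, of which Mndal, Isg20 and Ly6a were the 3 on the interferon list. In the edgeR fit, 31 of 32 tested list genes stood higher in positive cells, none called, with a median log2 fold change of 0.88 against -0.13 over all genes, and 11 of the 32 were higher in each of the 5 mice, against 3% of all genes.

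Ly6a, an interferon-inducible surface protein of T cells, was higher in positive than in negative cells of each mouse. Positive cells had 453, 863 and 401 CPM with TAT-CRE and 230 and 318 CPM with PBS. Negative cells of the same mice had 184, 279, 244, 136 and 178 CPM. Its log2 fold change was 1.03 ± 0.21 (SE), with an adjusted p of 0.157 by edgeR and 0.0309 by DESeq2, and of 0.0309 to 0.999 over 19 alternatives. Leaving out TAT-CRE 208 gave 0.86 with an edgeR adjusted p of 0.997.

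On the lower side, 4 of the 72 genes were mitochondrial, named after their values were seen. mt-Nd4, a subunit of respiratory complex I, had 3185, 5705 and 3655 CPM in positive cells with TAT-CRE and 4484 and 3939 CPM with PBS. Negative cells of the same mice had 4114, 7783, 4571, 5408 and 4316 CPM, higher in each mouse. The log2 fold change of mt-Nd4 was -0.35 ± 0.07 (SE), with an edgeR adjusted p of 0.157 and of 7.26e-22 to 0.999 over 19 alternatives. The lowest was that without the filter on low counts. For cells with 2 or more members mt-Nd4 had -1.13, where the median over all 1495 genes of that fit was itself -0.75. mt-Cytb, mt-Nd1 and mt-Tt were also lower in positive cells of 5 of 5 mice, at -0.28, -0.26 and -0.37. Of 16 mitochondrial genes tested, 15 stood lower and none was called, with a median log2 fold change of -0.20 against -0.13 over all genes. All mitochondrial genes took up 18.2% ± 1.8 of the UMIs of positive cells and 18.9% ± 1.8 of those of negative cells (SD, n = 5), a smaller share in 5 of 5 mice. This difference moved with that of the interferon response genes, and its part in it was not tested.

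Among the 10 genes most like the family in detection, by the mean phi coefficient over 5 mice, were Ifih1, Isg20, Usp18, Ifi27l2a, Isg15, Ly6a, Ebag9, Slfn1 and Plac8. The phi of the 10 ran from 0.126 to 0.165, weak values over sparse counts, where the median of the 7233 genes ranked was 0.0143. Ifih1, a sensor of double-stranded RNA, was found in 8.29% of positive and 0.940% of negative cells. Isg20, an exonuclease, was found in 13.7% and 2.82%, and Usp18, which removes ISG15 from proteins and dampens interferon signalling, in 4.88% and 0.548%. Isg15 itself, a ubiquitin-like modifier, was found in 5.37% and 0.940%. These shares pool the mice, and 145 of the 205 positive cells came from TAT-CRE mice. The phi was above 0 in 5 mice for Isg15 and in 4 for Ifih1, Isg20 and Usp18. In PBS 216, Ifih1 was in 0% of positive and 1.48% of negative cells. In PBS 218, Isg20 was in 2.86% and 3.77%, and Usp18 in 0% and 1.67%. Of the 10, 7 were on the interferon list.

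The members a cell held went with its level of the list. Cells with 2 or more members summed to 15450, 28703 and 21938 CPM of the other interferon response genes in the TAT-CRE mice and to 14319 and 19525 CPM in the PBS mice. Those of PBS mice were 2 and 3 cells, and still reached 3.33 and 4.27 times the cells without a member. Cells with exactly 1 member had 5725, 11802 and 5980 CPM against 5144 and 4573 CPM, which is 1.00 to 2.00 times the cells without. By member, the ratio of the mean levels was 1.66 for cells with Ifit1 alone, 1.46 for Ifit2 alone, 1.42 for Ifit3 alone, 1.22 for Ifit1bl1 alone and 1.07 for Ifit3b alone. For Ifit1 alone TAT-CRE 208 had 2.88, and the remaining 4 mice lay between 1.12 and 1.42. For Ifit1bl1 alone, the class with the most cells (66), it was below 1 in TAT-CRE 207 and PBS 218. In PBS 216 it was 0.82 for Ifit2 alone, 0.91 for Ifit3 alone and 0.18 for Ifit3b alone, from 3, 1 and 1 cells.

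The same comparison was refitted for the 37 cells with 2 or more members against cells with none, a choice made after seeing these values. edgeR then called 3 of 1495 genes, all higher. Among them, Mndal, a nuclear interferon-inducible protein, stood at 1546 against 212 CPM (adjusted p = 0.00348, higher in 4 of 5 mice) and Ifi27l2a at 1349 against 254 CPM (adjusted p = 0.00543, 5 of 5 mice). Their fitted log2 fold changes were 1.99 ± 0.43 and 1.84 ± 0.42 (SE), where the median over all 1495 genes was -0.75. The PBS sums of this class came from 2 and 3 cells. In the refit for cells with exactly 1 member edgeR called none of 2247 genes.

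**Figure D4:**
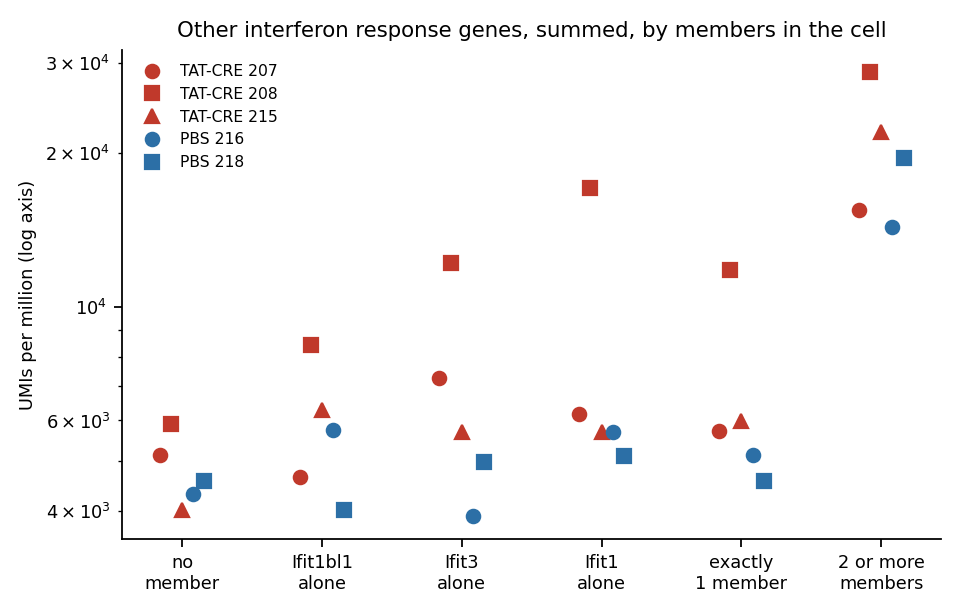
Summed level of 64 interferon response genes outside the family (y axis, CPM on a log scale) in cells grouped by the members they held (x axis), 1 point per library. Cells with 2 or more members lie at 14319 to 28703 in all 5 libraries, above the cells without a member (4004 to 5906).

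Markers of other cell types were summed over the same cells. The 12 T cell markers summed to 5478 CPM in positive and 5723 CPM in negative cells. The 10 CD8 lineage markers summed to 5901 ± 1587 CPM in positive and 4781 ± 964 CPM in negative cells (SD, n = 5), higher in positive cells of 4 of 5 mice. Of these markers the chemokine gene Ccl5 gave by far the most UMIs, 1464 in positive and 6128 in negative cells. Cd8a gave 329 and 1285. The 10 CD4 lineage markers summed to 437 ± 163 and 613 ± 173 CPM, higher in positive cells of 1 of 5 mice. The 14 markers of resident or effector T cells summed to 2292 ± 897 and 1645 ± 335 CPM, higher in 4 of 5 mice. The 10 monocyte or macrophage markers summed to 182 ± 93 CPM in positive cells (58.5 to 292) and 110 ± 19 CPM in negative cells (83.0 to 133), also higher in 4 of 5 mice. Nearly all of these UMIs were of the chemokine receptor Ccr2, which T cells also express. For the 10 microglia markers the sum was 0 to 148 CPM against 4.10 to 102 CPM. The part of these in the results was not tested.

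Cells were then split by coreceptor. Of the kept cells, 85 had a Cd4 UMI and no Cd8a or Cd8b1 UMI, 630 the reverse, 25 both and 742 neither. Any member was found in 15.3% of Cd4 cells (8.40% to 24.7%, exact 95%), in 16.5% of Cd8 cells (13.7% to 19.6%) and in 11.3% of cells with neither (9.13% to 13.8%), whose median depth was 1316 UMIs against 1717 and 1986. After thinning to 400 UMIs these shares were 7.09%, 8.16% and 6.50%.

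The family sum was lower in Cd4 than in Cd8 cells of each mouse, an order that 5.49% of the 728 genes tested between these classes had. It was 277 against 344 CPM in TAT-CRE 207, 845 against 1191 in TAT-CRE 208 and 151 against 417 in TAT-CRE 215. These Cd4 levels came from 6, 3 and 2 positive cells. In PBS 216 the family sum was 39.7 against 152 CPM and in PBS 218 31.9 against 284. The Cd4 cells of these PBS mice were only 13 and 8, with 1 family UMI in each class. The mean difference was -1.34 ± 1.01 (SD, n = 5) on the log2(CPM + 10) scale, lower in 5 of 5 mice, and the exact two-sided sign-flip permutation test gave p = 0.0625, the smallest that 5 pairs allow. The exact Poisson intervals of the classes overlapped in TAT-CRE 207, TAT-CRE 208 and PBS 216. They count each UMI as independent, and with several UMIs in a positive cell they are too narrow. In TAT-CRE 207 the share of positive cells was higher in Cd4 than in Cd8 cells, at 27.3% against 21.8%. It was lower in Cd4 cells of each other mouse.

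No member passed the filter on low counts of the edgeR fit between Cd4 and Cd8 cells, where 728 genes were tested and 2 called (0.275%), Ccl5 and Ly6c2, both lower in Cd4 cells. DESeq2 called 4 (0.549%). Ifit1bl1 was found in 9.41% of Cd4 and 6.83% of Cd8 cells, Ifit1 in 4.71% and 4.60%, Ifit3 in 3.53% and 5.87% and Ifit2 in 1.18% and 2.06%. Their exact intervals overlapped in each case. These shares pool the mice, and 64 of the 85 Cd4 cells but 375 of the 630 Cd8 cells came from TAT-CRE mice. As means of the 5 mice, Ifit1 stood at 67.4 ± 77.8 CPM in Cd4 and 181 ± 191 CPM in Cd8 cells (SD). Ifit1bl1 stood at 120 ± 131 and 141 ± 100 CPM. These SDs are spreads between mice and not of the paired difference. In the order 207, 208, 215, 216, 218, Ifit1 had 130, 169, 37.7, 0 and 0 CPM in Cd4 cells. In Cd8 cells it had 101, 509, 186, 37.1 and 72.2 CPM, higher in every mouse but TAT-CRE 207. Only 4 Cd4 cells held an Ifit1 UMI. Ifit1bl1 was higher in Cd4 cells of the TAT-CRE mice and lower in those of the PBS mice. Ifit3b was in 0 of 85 Cd4 cells, which allows a share of up to 3.53% at 3 counts and 4.25% by the exact interval, and in 1.43% of Cd8 cells, so a difference was not detectable at this number of cells.

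**Figure D5:**
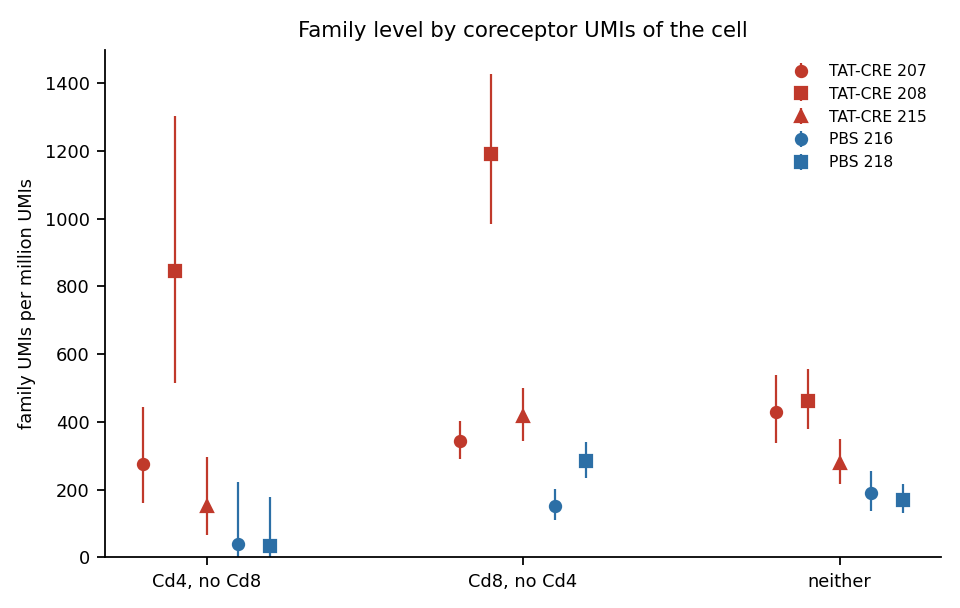
Family level in CPM (y axis) in cells with a Cd4 UMI only, with a Cd8a or Cd8b1 UMI only and with neither (x axis), for 3 TAT-CRE (red) and 2 PBS (blue) libraries, with exact 95% Poisson intervals. Cd4 values lie below Cd8 values in each of the 5 libraries, and TAT-CRE 208 is the highest in every class, at 845, 1191 and 461.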

How the data were processed

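T cells of 5 libraries were sorted 1 per well into 384-well plates, and RNA was barcoded per well, per the labels' protocols. The authors deposited raw UMI counts for each gene in each well; the submitters' processing notes name bcl2fastq 2.15.0.4 and the mm10 build. Aligner, annotation and strand use: not given in the sources used here. Kept wells held 1 cell by the deposited count of cells per well, 400 or more UMIs without spike-ins and no more than 30% mitochondrial UMIs, and no doublet caller was run. Counts were summed per mouse and class and tested with edgeR 4.0.16 (quasi-likelihood, TMM, default filter on low counts, Benjamini-Hochberg, adjusted p under 0.05), with mouse as a block within mice, and with DESeq2 1.42.0 as an alternative. Both sums of a mouse come from the same library, which is the source of the pairing. The fits were also run on simulated counts with 200 changed genes, which does not show their power for the sparse differences in these data. The 5 genes that define positive cells, and Cd4, Cd8a and Cd8b1 for their classes, stayed out of those fits. Members and gene lists were chosen with earlier results of these data known. Genes outside the family were named by likeness of detection (the 10 highest phi in genes of at least 1% of cells), and none by the rule on called genes, as edgeR called none; some genes are not reported here. Depth was 362457 to 839188 UMIs per library, and intervals cover counting error only. Promoter windows come from RefSeq (GRCm38.p6).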

Additional observations from a re-analysis of the deposited data

Results flagged for a closer look

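The 418 single-cell wells that were not kept, for depth or mitochondrial share, held 52 family UMIs in 23 wells, which came to attention as signal in data outside the comparisons. That is 181 CPM against 318 CPM in kept cells, and 0 UMIs in the 20 empty wells.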

How the results depend on the processing

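The number of genes called between Ifit-positive and Ifit-negative cells was 0 by edgeR, 4 by DESeq2, 2 with Ifit1bl1 not counted and 33 without the filter on low counts (1 higher and 32 lower, with the median log2 fold change of all genes at -0.85 against -0.13). With positive cells redefined after seeing the data it was 3 for 2 or more members and 0 for exactly 1 member or Ifit1bl1 alone. Between Cd4 and Cd8 cells it was 2, and 4 by DESeq2, 57 without the filter (all lower, median -1.28 against -0.07), 1 with cells of both counted as Cd4 and 1 to 3 with each mouse left out, 1 being without TAT-CRE 215. Between TAT-CRE and PBS it was 0, 1 by DESeq2 and 8 without the filter. Without the replicate block, edgeR called 0 and 2 genes, as with it. The log2 ratio of the interferon list was 0.82, moved to 2.03 for 2 or more members and 0.25 for Ifit1bl1 alone, and was 0.67 to 0.92 with each mouse left out. The Cd4 minus Cd8 difference ran from -1.60 to -0.98, the co-detection ratio from 3.10 to 4.12, family UMIs per positive cell from 4.51 to 4.95 and the share difference from 3.08 to 7.40 percentage points with each mouse left out; it was 3.08 without PBS 216 and 3.52 without TAT-CRE 207. The members' TAT-CRE to PBS log2 fold changes were above 0 in all settings in which each could be fitted. The cause of these differences was not tested.

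Ifit2 and Ifit3b rest on few UMIs, 101 and 39 in all, and the PBS Cd4 classes on few cells, 13 and 8, with 1 family UMI in each. Differences between TAT-CRE and PBS are descriptions because the members were chosen with their levels known.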
